A study of Rattus norvegicus with 862 samples.

Results

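Epirubicin is an anthracycline, a chemotherapy drug that intercalates into DNA and traps topoisomerase II on it. The 9 rats described here received epirubicin at 2.7 mg/kg in saline by the intravenous route. Hearts were taken from 3 rats after 1 d, 3 after 3 d and 3 after 5 d of daily dosing. They are set against 22 rats given saline alone by the same route (dose 0), 6 at 1 d, 8 at 3 d and 8 at 5 d, whose RNA was extracted in the same campaign. All 31 were males of the strain Sprague Dawley, CD-IGS, bought at 6 to 8 weeks of age. One array was used for each animal. The whole series holds 862 arrays from 840 animals, hearts of rats given one of many compounds or a vehicle. Each array reports 31099 probe sets, of which 1 was kept per gene, giving 14217 genes. Values are log2 expression as deposited, between 3.15 and 14.82, and a change is the mean of epirubicin rats minus the mean of controls of the same duration.

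The question was whether the change with epirubicin at 5 d differed from that at 1 d and 3 d. It was put to each gene as a treatment-by-duration interaction. The threshold for a call, with limma's moderated test, was an adjusted p (Benjamini-Hochberg, over 14217 genes) no higher than 0.01 with a change of at least 1.5-fold. Rats were harvested in the early afternoon at 1 d and in the morning at 3 d and 5 d, treated and control alike. The epirubicin rats came from 1 study of the series and the controls from 9. Only 1 control rat at 1 d, 1 at 3 d and 0 at 5 d belonged to the epirubicin rats' own study, so at 5 d that study and the drug cannot be told apart.

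Anthracyclines are known for toxicity to heart muscle and for arrest of dividing precursor cells in the bone marrow. Interferons induce a shared set of genes that includes the immunoproteasome, which cuts proteins into peptides, the TAP transporter and MHC class I molecules that carry those peptides to the cell surface, and GTPases that act on intracellular microbes. Interferon gamma is made mainly by T cells and natural killer cells and also induces MHC class II, which presents peptides to helper T cells. A heart sample contains blood, so it also holds transcripts of young red cells.

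The hearts carried their defining transcripts. Over 33 heart muscle genes, the mean level was 12.49 to 12.63 in epirubicin rats at 5 d and 12.52 to 12.70 in controls at 5 d. Correlation with the mean of all arrays was 0.978 to 0.987 in epirubicin rats at 5 d, 0.990 to 0.993 in epirubicin rats at 1 d and 3 d, and 0.988 to 0.996 in controls. A few arrays stood apart by genes of other tissues. The mean of 19 liver genes was 7.28 in epirubicin rat 2 at 5 d, 7.87 in 1 control at 5 d and 7.18 in 1 control at 1 d, and 1 more control at 5 d had an adipocyte mean of 8.92. The totals over all genes and the counts of some gene lists were recomputed without these 4 arrays. Those that moved by more than 1.5 times are given both ways. Subsets of the interaction genes, motif shares and comparisons of drugs were not recomputed in this way.

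More genes were called at each later duration. At 1 d 65 genes were called, 28 higher and 37 lower (0.457% of genes tested). At 3 d there were 272, 154 higher and 118 lower (1.91%), and at 5 d 691, 483 higher and 208 lower (4.86%). The median change over all genes was -0.01 at 1 d, -0.01 at 3 d and -0.02 at 5 d. The interaction was called for 106 genes (0.746%). The change at 5 d differed from that at 1 d for 82 genes (0.577%), with a greater value at 5 d for 74 (0.521%) and a smaller one for 8 (0.0563%). It differed from that at 3 d for 87 genes (0.612%), greater for 78 (0.549%) and smaller for 9 (0.0633%). Between 3 d and 1 d the change differed for 4 genes (0.0281%), greater at 3 d for 1 (0.00703%) and smaller for 3 (0.0211%). All epirubicin rats lay above every control of their duration for 3.13%, 5.27% and 6.06% of genes at 1, 3 and 5 d, and below every control for 3.79%, 3.21% and 3.73%. Without the 4 arrays of high liver or adipocyte level 472 genes were called at 5 d and 58 by the interaction, and leaving out 1 rat at a time gave 68 interaction genes (without epirubicin 5 d rat 2) to 143 (without epirubicin 5 d rat 3).

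Of the 106 interaction genes, 88 had their largest change at 5 d, 82 of them higher in epirubicin rats and 6 lower. A further 17 had it at 3 d and 1 at 1 d. The change was called at 5 d alone for 74, at 3 d and 5 d for 12, at 3 d alone for 9, at all 3 durations for 5 and at no single duration for 6. For 53 genes the change at 5 d differed from both earlier ones, 51 upward and 2 downward. By contrast, 43 genes were called in the same direction at all 3 durations, 19 higher and 24 lower, and 5 of these showed the interaction. No gene was called in opposite directions at 1 d and 5 d, and 2 were at 3 d and 5 d.

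**Figure D1:**
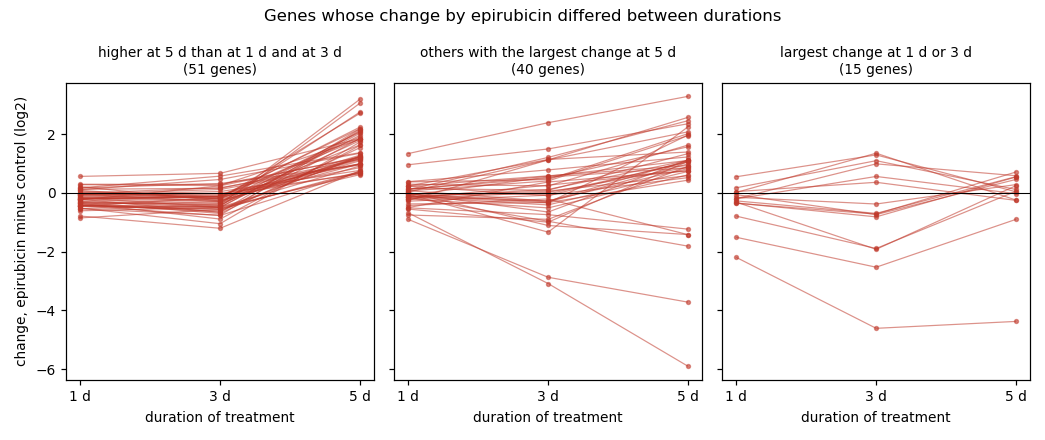
Change with epirubicin against controls (log2, y axis) at 1, 3 and 5 d of treatment (x axis) for the 106 genes called by the interaction, 1 line per gene. One panel holds the 51 genes called greater at 5 d than at both earlier durations. The rest are split by their largest change, at 5 d (40 genes) or at 1 d or 3 d (15 genes). In the panel of 51 genes the change runs between -0.85 and 0.56 at 1 d, with 40 of the 51 at or below 0, between -1.20 and 0.67 at 3 d, again with 40 at or below 0, and between 0.62 and 3.19 at 5 d.

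Many interferon-inducible genes rose late. Of 39 genes on an interferon response list, 21 were called higher and 1 lower at 5 d, where 3.4% of all genes were called higher. At 3 d 2 were called higher and 4 lower, and at 1 d 0 were higher and 1 lower. Over all genes, 1.46% were called lower at 5 d, 1.08% higher and 0.83% lower at 3 d, and 0.197% higher and 0.26% lower at 1 d. Without any 1 epirubicin rat at 3 d, 0 were called higher and 1 or 2 lower at 3 d. The list's median change was -0.30 at 1 d, -0.47 at 3 d and 0.91 at 5 d. The interaction was called for 21 of the 39, and for 0.746% of all genes. The mean level over the list was 8.04 to 8.56 in epirubicin rats at 5 d and 6.90 to 7.49 in controls at 5 d, with no overlap. At 3 d it was 6.79 to 7.06 in epirubicin rats and 7.08 to 7.69 in controls. Without the 4 arrays named above 15 were called higher at 5 d and 12 by the interaction, and without epirubicin 5 d rat 2 alone 15 and 14.

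The catalytic subunits of the immunoproteasome rose together at 5 d. Psmb9 read 7.82, 7.84 and 7.78 in epirubicin rats at 1 d, 7.50, 8.00 and 8.01 at 3 d, and 11.11, 11.29 and 11.16 at 5 d. Controls had a lowest, median and highest value of 7.89, 8.18 and 8.32 at 1 d, 7.48, 8.29 and 9.03 at 3 d, and 7.66, 7.85 and 8.66 at 5 d. Every epirubicin rat at 5 d was above every control, whereas at 3 d epirubicin rats lay within the range of controls and at 1 d just below it. The change was -0.33 ± 0.22 (SE) at 1 d, -0.40 ± 0.21 at 3 d and 3.19 ± 0.21 at 5 d, a 9.13-fold higher level, with an interaction adjusted p of 1.05e-09. Within each of the 3 hybridisation dates that held an epirubicin rat at 5 d the change was 3.09, 3.45 and 2.51. Psmb8 changed by -0.53, -0.42 and 2.10 at 1, 3 and 5 d, and Psmb10 by -0.29, -0.41 and 1.78. Psme2, a subunit of the proteasome activator, changed by -0.20, -0.13 and 1.17, and is named here after its values were seen. All 4 were called by the interaction.

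Peptide transport and MHC class I followed the same course. Tap1, one chain of the peptide transporter, read 8.54, 9.26 and 9.15 in epirubicin rats at 5 d, against a lowest, median and highest value of 6.50, 7.14 and 7.32 in controls. Its change was -0.19 at 1 d, -0.12 at 3 d and 1.91 ± 0.21 at 5 d. Tap2, the other chain, changed by 0.99 at 5 d, the class I gene RT1-S3 by 1.85 and RT1-CE5 by 1.63. B2m, the invariant light chain of class I, is abundant in heart and read 13.84, 13.72 and 13.81 in epirubicin rats at 5 d, against 12.50, 12.91 and 13.32 as the lowest, median and highest of controls. Its change was -0.07, -0.08 and 0.86 at 1, 3 and 5 d. The epirubicin rats at 5 d lay above all controls for each of these genes. RT1 genes are near-identical family members, and their probe sets may not separate them.

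Interferon-inducible GTPases were the next group. Igtp, a GTPase of the immunity-related family, read 9.05, 10.43 and 10.44 in epirubicin rats at 5 d, against 6.31, 6.92 and 7.48 as the lowest, median and highest of controls. Epirubicin rat 1 was lower than the other 2 but above every control. The change was -0.41 ± 0.29 at 1 d, -0.47 ± 0.28 at 3 d and 3.06 ± 0.28 at 5 d (8.32-fold, interaction adjusted p 3.53e-07). Irgm changed by 1.96 at 5 d and Ifgga2l1 by 2.18. Among guanylate-binding proteins, Gbp2 changed by -0.61, -0.49 and 2.03 at 1, 3 and 5 d, Gbp7 by -0.54, -0.76 and 2.14, and Gbp4 by 0.06, -0.12 and 1.84.

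A chemokine and a pair of enzymes of tryptophan metabolism belonged to this set. Cxcl9, a chemokine that attracts T cells, read 9.06, 10.04 and 10.34 in epirubicin rats at 5 d, against 6.57, 6.88 and 8.13 in controls (lowest, median and highest). Ido1, which starts tryptophan breakdown, read 7.25, 8.89 and 6.72 in epirubicin rats at 5 d, against 4.58, 4.96 and 5.28 in controls. Neither overlapped, and rat 2 was the highest for Ido1. The 5 d changes were 2.75 ± 0.28 and 2.71 ± 0.24, against -0.35 and -0.20 at 3 d. Wars1, the enzyme that loads tryptophan onto its transfer RNA, changed by -0.20, -0.12 and 2.19 ± 0.17 at 1, 3 and 5 d. Other chemokines that share a receptor with Cxcl9 differed from it. Cxcl10 changed by 0.92 at 5 d with an adjusted p of 0.021 and was not called, and Cxcl11 was called higher at 3 d (1.41) and at 5 d (1.25), with no interaction.

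Of the transcription factors of the pathway, Irf1 read 9.28, 10.25 and 9.87 in epirubicin rats at 5 d, against 7.97, 8.26 and 8.65 in controls (lowest, median and highest). It changed by -0.32, -0.70 and 1.54 ± 0.21 at 1, 3 and 5 d. Stat2 changed by -0.04, -0.30 and 1.25, while Irf7 changed by 0.61 at 5 d with an adjusted p of 0.19. The receptor chain Ifngr1 was called higher at 5 d (0.69) with no interaction, and Ifngr2 (0.17) and Ifnar1 (-0.13) were not called. The transcript of interferon gamma itself, Ifng, lay near the bottom of the scale, at 3.89 to 3.98 in epirubicin rats at 5 d and 3.93 to 4.23 in controls. It was not called at any duration.

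Genes known mainly as targets of type I interferon did not move as one. The 4 called lower at 3 d were Rsad2, Isg15, Mx2 and Herc6. Rsad2, an antiviral enzyme, read 6.80, 6.89 and 6.82 in epirubicin rats at 3 d and 7.59, 8.60 and 8.79 at 5 d. Controls read 8.91, 9.35 and 9.79 (lowest, median and highest) at 3 d and 8.74, 9.32 and 9.54 at 5 d. The groups did not overlap at 3 d, while at 5 d epirubicin rat 3 was within the range of controls. The change was -1.51 at 1 d, -2.53 at 3 d and -0.90 at 5 d, called at all 3 durations, and without epirubicin 5 d rat 1 the 5 d change was -0.53 and no longer called. Isg15, a ubiquitin-like protein, fell by 1.20 at 3 d, while its 5 d change of 0.76 had an adjusted p of 0.0135 and was not called. Mx1, an antiviral GTPase, changed by 0.92 at 5 d (adjusted p 0.021). Ifit3, which binds viral RNA, rose by 2.24 at 5 d, with rats at 7.99, 8.39 and 6.79 against 4.91, 5.42 and 6.09 in controls. Ddx60, a helicase, changed by -1.05 at 3 d, not called, and rose by 1.73 at 5 d, and Slfn4 by -1.33, not called, and 2.25.

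**Figure D2:**
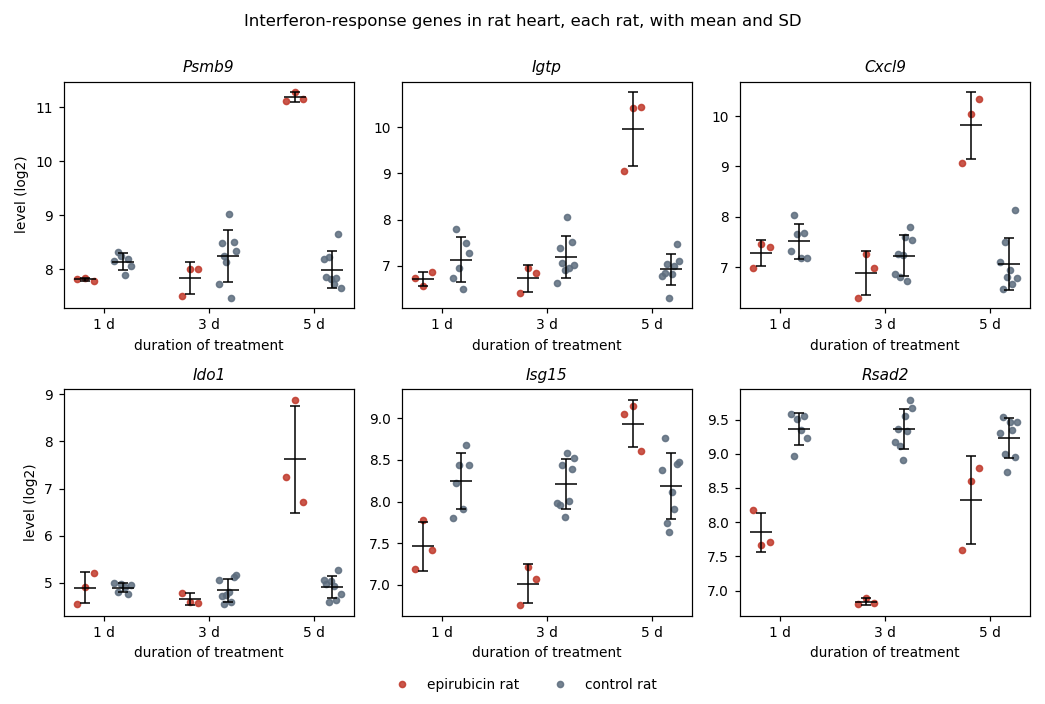
Level (log2, y axis) of 6 interferon-inducible genes in each epirubicin rat and each control at 1, 3 and 5 d (x axis), with bars for the mean and SD. Psmb9, Igtp, Cxcl9 and Ido1 are above all controls at 5 d only, while Rsad2 is below all controls at 3 d.

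The letters before the start sites of these genes are shown because the genes moved together. Interferon-activated factors are known to bind a repeat of the form GAAANNGAAA and an inverted repeat of the form TTCNNNGAA. Both strands of promoters from RefSeq (build GRCr8, 250 bases before to 50 after each start) were searched, and each motif may overlap another. Of the 106 interaction genes, 88 had a promoter in the table. GAAANNGAAA was found in 33.0% of these 88, in 51.1% of the 45 that were greater at 5 d than at both earlier durations, in 2.99% of 11700 tested genes and in 3.77% of all 27457 promoters. TTCNNNGAA was found in 14.8%, 20.0%, 6.99% and 8.68% of the same sets. Within the interferon list, GAAANNGAAA stood in 66.7% of 18 genes with the interaction and in 66.7% of 15 without it. Capitals mark the motif on either strand, with 20 bases on each side, read along the gene.
Igtp, chr10:42874924-42874973, + strand: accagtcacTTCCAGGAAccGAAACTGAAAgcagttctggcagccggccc
Irgm, chr10:33742583-33742632, - strand: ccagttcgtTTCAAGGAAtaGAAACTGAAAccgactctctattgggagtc
Gbp2, chr2:234005676-234005725, + strand: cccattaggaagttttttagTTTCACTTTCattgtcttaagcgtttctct
Psmb10, chr19:50743336-50743385, - strand: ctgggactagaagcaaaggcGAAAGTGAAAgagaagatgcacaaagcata
Psme2, chr15:33052775-33052824, - strand: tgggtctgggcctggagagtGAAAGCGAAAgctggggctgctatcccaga
B2m, chr3:129549160-129549209, + strand: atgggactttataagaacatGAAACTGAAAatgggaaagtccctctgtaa
Tap1, chr20:4668635-4668684, - strand: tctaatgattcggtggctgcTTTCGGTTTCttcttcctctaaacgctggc
Ifit3, chr1:241527262-241527311, + strand: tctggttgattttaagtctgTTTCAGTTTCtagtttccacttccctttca
Rsad2, chr6:48788238-48788287, - strand: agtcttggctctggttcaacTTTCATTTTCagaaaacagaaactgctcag
Irf1, chr10:38417773-38417821, + strand: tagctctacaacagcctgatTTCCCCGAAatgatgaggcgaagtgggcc
Igtp and Irgm carried both motifs in the same order, 2 bases apart. The first base of GAAANNGAAA stood at -103 in Igtp, -34 in Irgm, -31 in Gbp2 and -150 in B2m, counted from the start site. Rsad2, which was lower at all durations, carried the same motif as Ifit3, which was higher at 5 d. The windows of Psmb9, Wars1 and Stat2 held neither string. Psmb9 and Tap1 run away from each other on chromosome 20 with starts 457 bases apart, so their promoters share 44 bases.

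MHC class II genes had a different course. RT1-Da, a class II alpha chain, read 9.56, 8.61 and 8.68 in epirubicin rats at 1 d, 7.94, 8.28 and 8.35 at 3 d, and 9.98, 10.14 and 9.95 at 5 d. Controls read 9.23, 9.82 and 9.96 (lowest, median and highest) at 1 d, 9.38, 9.98 and 10.63 at 3 d, and 9.44, 9.87 and 10.74 at 5 d. The epirubicin rats were below every control at 3 d and inside their range at 5 d. The change was -0.79 ± 0.25 at 1 d, not called, -1.89 ± 0.24 at 3 d and 0.06 ± 0.24 at 5 d, and the interaction was called (adjusted p 0.00226). RT1-Db1, a beta chain, changed by -0.31, -1.92 and 0.25. RT1-Ba changed by -0.82, -1.86 and -0.08, with an interaction adjusted p of 0.024 that was not called. Cd74, the class II invariant chain, was called lower at 3 d (-0.80) and changed by -0.55 at 5 d. Against the 1 control of the same study, RT1-Da at 3 d changed by -1.87. Of the 18 genes on the antigen presentation list, 0 were called at 1 d, 4 were lower at 3 d and 6 were higher at 5 d, where 0.83% of all genes were called lower at 3 d and 3.4% higher at 5 d. The 4 lower at 3 d were RT1-Ba, RT1-Da, RT1-Db1 and Cd74. The 6 higher at 5 d were RT1-CE5, RT1-S3, B2m, Tap1, Tap2 and Ctss, none of them a class II chain. Tap1 and Tap2 are also on the interferon response list, and Ctss on the macrophage list. The interaction was called for 8 (0.746% of all genes), or 3 without the 4 arrays named above.

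Markers of immune cells were measured beside these genes. Over 27 lymphocyte genes, 1 was called higher and 2 lower at 5 d, and 5 lower at 3 d, where 3.4% of all genes were called higher and 1.46% lower at 5 d, and 0.83% lower at 3 d. Without epirubicin 3 d rat 1 or rat 3 the count lower at 3 d was 2, without 5 d rat 2 none of the 27 was called at 5 d, and without the 4 arrays 0 were higher and 1 lower at 5 d. The mean over the list was 5.24 to 5.55 in epirubicin rats and 5.59 to 5.95 in controls at 3 d, and 5.48 to 5.60 and 5.53 to 5.85 at 5 d. The granule enzyme Gzmb was the 1 called higher (0.75), a call that was lost without epirubicin 5 d rat 2. Over 24 macrophage genes, 9 were called higher at 5 d (3.4% of all genes), and the mean was 7.33 to 7.61 in epirubicin rats and 6.81 to 7.30 in controls. The list did not move as one. Its median change was 0.18, -0.13 and 0.26 at 1, 3 and 5 d, and 16 of the 24 had a positive change at 5 d. At 3 d 1 was called higher and 1 lower. The lower one, Csf1r, changed by -0.66 at 3 d and by -0.56 at 5 d, the latter not called. Cd163, a scavenger receptor, rose by 1.22, C1qb, a chain of complement C1q, by 0.93, and Ctss, a protease that prepares class II, by 1.07. Ctss was the 1 gene of this list called by the interaction (changes 0.23, -0.09 and 1.07), and without epirubicin 5 d rat 1 or rat 2, or without the 4 arrays, 6 macrophage genes were called higher. The Ctss interaction was not called without the 4 arrays. The part of these cells in the interferon result was not tested. In a bulk sample, fewer cells of a type and less RNA per cell cannot be told apart.

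Some complement and acute phase genes rose late as well. Of 29 measured, 9 were called higher at 5 d, where 3.4% of all genes were, and 4 by the interaction (0.746% of all genes), and the list's median change at 5 d was 0.17. These 9 include C1qa, C1qb and C1qc, which were also counted among the 9 macrophage genes. Serping1, the inhibitor of complement C1, read 11.99, 11.74 and 11.80 in epirubicin rats at 5 d, against 9.62, 10.06 and 10.28 in controls (lowest, median and highest). Its change was 0.28, 0.25 and 1.83 ± 0.16 at 1, 3 and 5 d. The C1 proteases C1s and C1r changed by 1.85 and 1.20 at 5 d. Orm1, an acute phase plasma protein, read 4.70, 5.04 and 5.21 in epirubicin rats at 1 d, 6.25, 6.44 and 5.75 at 3 d, and 8.23, 7.69 and 6.44 at 5 d, against 4.63, 4.96 and 5.61 in controls at 5 d. It was above all controls from 3 d on. Its change was 0.11, 1.21 and 2.46. At 5 d Orm1 was highest in rat 1, and liver genes as a group were highest in rat 2. The part of liver transcripts in the rise of Orm1 was not tested. Without the 4 arrays of high liver or adipocyte level 5 of the 29 were called higher at 5 d and 2 by the interaction, and without epirubicin 5 d rat 2 alone 5 were called higher.

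Some immediate early genes, which respond within minutes to many stimuli, were higher at 5 d with wide spread. Of 32, 10 were called higher at 5 d (3.4% of all genes), 1 at 3 d and 0 at 1 d, none was called by the interaction, and the list's median was -0.04, -0.02 and 1.06. Nr4a2, an orphan nuclear receptor, read 10.69, 8.90 and 10.40 in epirubicin rats at 5 d, against 5.81, 6.58 and 8.86 in controls (lowest, median and highest). Its change of 2.99 ± 0.64 at 5 d was called with all rats but not without rat 1 or rat 3, and its interaction adjusted p of 0.048 was not called. The neutrophil chemokine Cxcl1 changed by 2.23 at 5 d with rats at 7.73, 6.83 and 9.25, and rat 2 was just below the highest control (6.85). Without rat 3 the change was 1.57 and not called. Fos was not called, and its controls ran between 4.33 and 11.98 at 5 d. Without epirubicin 5 d rat 1, 4 of the 32 were called higher at 5 d, without rat 2, 5 were, and without the 4 arrays, 7 were. Without rat 3 the interaction was called for 3.

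Some red cell transcripts fell with epirubicin, Hbb in steps that went on to 5 d. Hbb, beta globin, read 13.10, 12.87 and 13.20 in epirubicin rats at 1 d, 10.44, 10.92 and 10.48 at 3 d, and 7.39, 7.47 and 7.90 at 5 d. Controls read 13.54, 13.79 and 13.89 (lowest, median and highest) at 1 d, 13.48, 13.69 and 13.99 at 3 d, and 13.15, 13.55 and 13.70 at 5 d. The groups were apart at each duration and the gap widened. The change was -0.68 ± 0.14, -3.08 ± 0.13 and -5.90 ± 0.13, or 1.60-fold, 8.47-fold and 59.6-fold lower, with an interaction adjusted p of 1.02e-17. This probe set is of a design that can also bind related globin transcripts. Against the 1 control of its own study the change was -0.67 at 1 d and -3.38 at 3 d. Within each of the 3 hybridisation dates that held an epirubicin rat at 5 d it was -5.78, -6.12 and -5.61.

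Alas2 and Slc4a1 reached their low level sooner than Hbb. Alas2, which starts haem synthesis in red cell precursors, read 8.41, 7.30 and 7.68 in epirubicin rats at 1 d, 5.15, 5.27 and 5.24 at 3 d, and 4.90, 5.04 and 4.93 at 5 d. Its controls stayed between 8.76 and 10.52, and no epirubicin rat reached them. The change was -2.19, -4.61 and -4.37, which differed between 5 d and 1 d and not between 5 d and 3 d (0.24, adjusted p 0.999). Hba-a3, an alpha globin gene, changed by -0.90 at 1 d, not called, -2.87 at 3 d and -3.72 at 5 d, and was also called by the interaction. Its change differed between 5 d and 1 d, while the difference between 5 d and 3 d (-0.85, adjusted p 0.177) was not called. Slc4a1, the anion exchanger of the red cell membrane, was as low at 1 d (-2.52) as at 3 d (-2.56) and 5 d (-2.27). Its mean in epirubicin rats was 5.50, 5.21 and 5.12. Levels so low on the scale, as for Alas2 from 3 d, leave little room for a further fall. The order in time of Alas2, Slc4a1 and Hbb may therefore reflect the floor of the array, which was not tested. Tfrc, the transferrin receptor, is on the red cell list and also on the iron list. Its control mean was 11.43, 11.42 and 11.18 at 1, 3 and 5 d, above that of Alas2 and Slc4a1. It changed by -2.40, -1.25 and -2.62 with an interaction adjusted p of 0.074. Bpgm, which makes bisphosphoglycerate in red cells, changed by -1.02, -1.19 and -1.21. Of 19 red cell genes 5, 6 and 5 were called lower at 1, 3 and 5 d, where 0.26%, 0.83% and 1.46% of all genes were, and without epirubicin 1 d rat 2 or rat 3 the count at 1 d was 3. The interaction was called for Hbb and Alas2 of this list, and Hba-a3 is not on it.

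**Figure D3:**
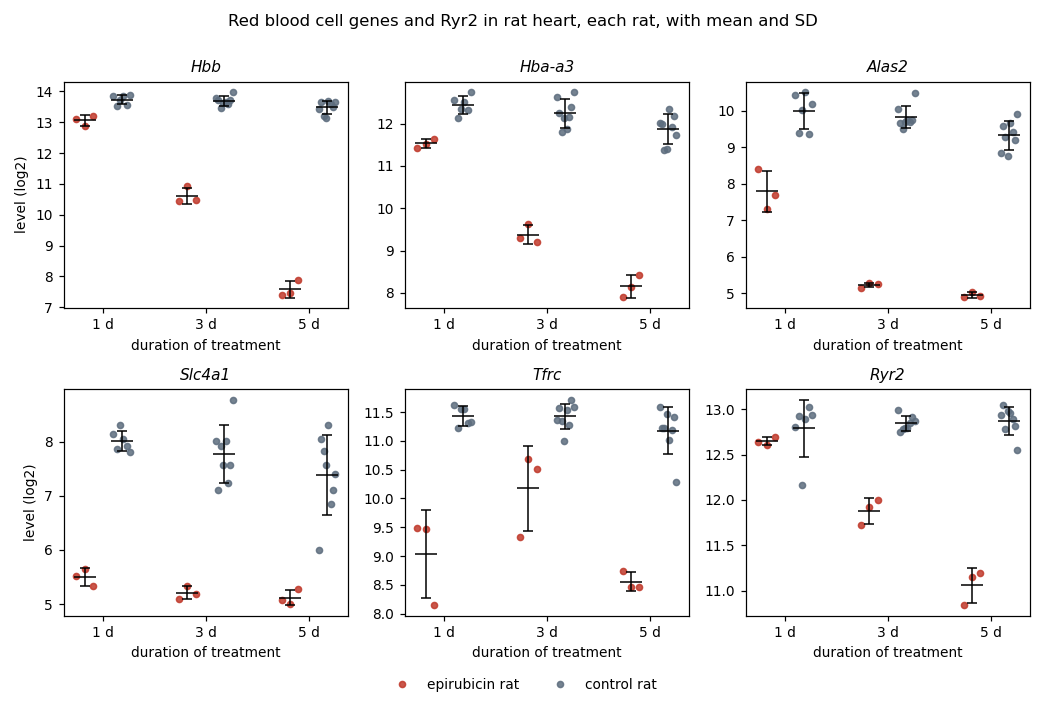
Level (log2, y axis) in each epirubicin rat and each control at 1, 3 and 5 d (x axis), with bars for the mean and SD. Shown are the red cell genes Hbb, Hba-a3, Alas2 and Slc4a1, together with Tfrc and Ryr2. Hbb is lower at each successive duration in epirubicin rats, Alas2 is near its lowest by 3 d and Slc4a1 by 1 d.

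Among genes of the heart muscle cell, the calcium release channel Ryr2 declined with duration. It read 12.64, 12.61 and 12.70 in epirubicin rats at 1 d, 11.72, 11.93 and 12.00 at 3 d, and 10.84, 11.15 and 11.19 at 5 d. Controls read 12.16, 12.91 and 13.02 (lowest, median and highest) at 1 d, 12.75, 12.82 and 12.99 at 3 d, and 12.55, 12.91 and 13.04 at 5 d. The groups overlapped at 1 d only. The change was -0.14 ± 0.13, -0.96 ± 0.12 and -1.81 ± 0.12 (3.51-fold lower at 5 d, interaction adjusted p 1.41e-06). Of 27 calcium handling genes, 4 were called lower at 5 d, where 1.46% of all genes were, and 1 by the interaction. Besides Ryr2 these were the sodium-calcium exchanger Slc8a1 (-0.60), the junction protein Jph2 (-0.72) and Asph (-0.96). The Slc8a1 call was lost without any 1 of 4 rats, and the mean of both Asph probe sets changed by -0.25, not called.

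Other contractile and metabolic genes named here were not called by the interaction. Of the 33 heart muscle genes, 0 were called at 1 d, 1 lower at 3 d, and 1 higher and 4 lower at 5 d, where 3.4% of all genes were called higher and 1.46% lower, and without the 4 arrays or without epirubicin 5 d rat 1 or rat 2 none was higher. Myh7, the slow myosin heavy chain, changed by 0.70 at 1 d, not called, 1.86 at 3 d and 2.48 at 5 d, with an interaction adjusted p of 0.34. Acta1, skeletal actin, was lower at every duration (-1.81, -1.24 and -1.80). Slc2a4, the insulin-responsive glucose transporter, read 10.07, 8.45 and 8.76 in epirubicin rats at 1 d, 7.72, 7.89 and 8.87 at 3 d, and 7.63, 8.63 and 7.90 at 5 d, against 10.58 to 11.13 over all controls. Its change was -1.81, -2.77 and -2.80, 6.97-fold lower at 5 d, without an interaction. The 65 oxidative phosphorylation genes had a median change of -0.02, -0.01 and -0.03 at 1, 3 and 5 d. Nppa, atrial natriuretic peptide, was not called at any duration, and its highest control reached 14.33 at 1 d and 14.22 at 5 d.

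Some genes outside these pathways also had a late course. Asb18, a gene of the ankyrin and SOCS box family, changed by 0.04, 1.13 and 2.57, with rats at 8.85, 8.85 and 9.83 at 5 d against 6.27, 6.65 and 6.90 in controls (lowest, median and highest). Bex1, a small adaptor protein, was called at each duration, at 1.34, 2.39 and 3.29, and is named here after its values were seen. It read 10.21, 9.78 and 9.32 in epirubicin rats at 5 d, against 5.96, 6.37 and 7.08 in controls. The secreted chaperone Clu fell by 1.11 at 3 d and by 1.42 at 5 d, and was at 0.02 at 1 d. Col15a1, a basement membrane collagen, changed by -0.43 and -0.20 and then fell by 1.42 at 5 d. Of 55 fibroblast and matrix genes, 9 were called lower and 3 higher at 5 d, where 1.46% of all genes were called lower and 3.4% higher, and of these Col15a1 showed the interaction. The lower count was 3 to 5 without any 1 of the 3 epirubicin rats at 5 d, 3 without the 4 arrays and 14 with hybridisation date as a random block, and the higher count was 1 without the 4 arrays. The Col15a1 interaction was not called without any 1 of several rats or without the 4 arrays. The endothelial receptor Aplnr changed by -0.68, -1.06 and -2.16, with an interaction adjusted p of 0.055.

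A few genes were called at 3 d and lay among controls at 5 d. Adamts9, a matrix protease, read 8.46, 9.02 and 9.33 in epirubicin rats at 3 d, against 7.33, 7.49 and 8.15 in controls (lowest, median and highest). At 5 d it read 7.14, 7.25 and 7.31 in epirubicin rats, against 6.54, 7.58 and 7.82 in controls. The groups were apart at 3 d and overlapped at 5 d. Its change was 0.02, 1.35 and -0.24, with an interaction adjusted p of 0.00121, but the mean of its 2 probe sets differed by -0.87 between 5 d and 3 d, not called, and the call was also lost without epirubicin 3 d rat 3. Slc1a1, a glutamate transporter, changed by 0.18, 1.10 and 0.12, and the arrestin-related Arrdc2 by 0.55, 1.30 and 0.04. The potassium channel Kcna5 was called at 3 d (2.15) and not by the interaction. The 1 control of the epirubicin rats' own study at 3 d read 8.07 for Kcna5, and against it the change was 0.12.

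**Figure D4:**
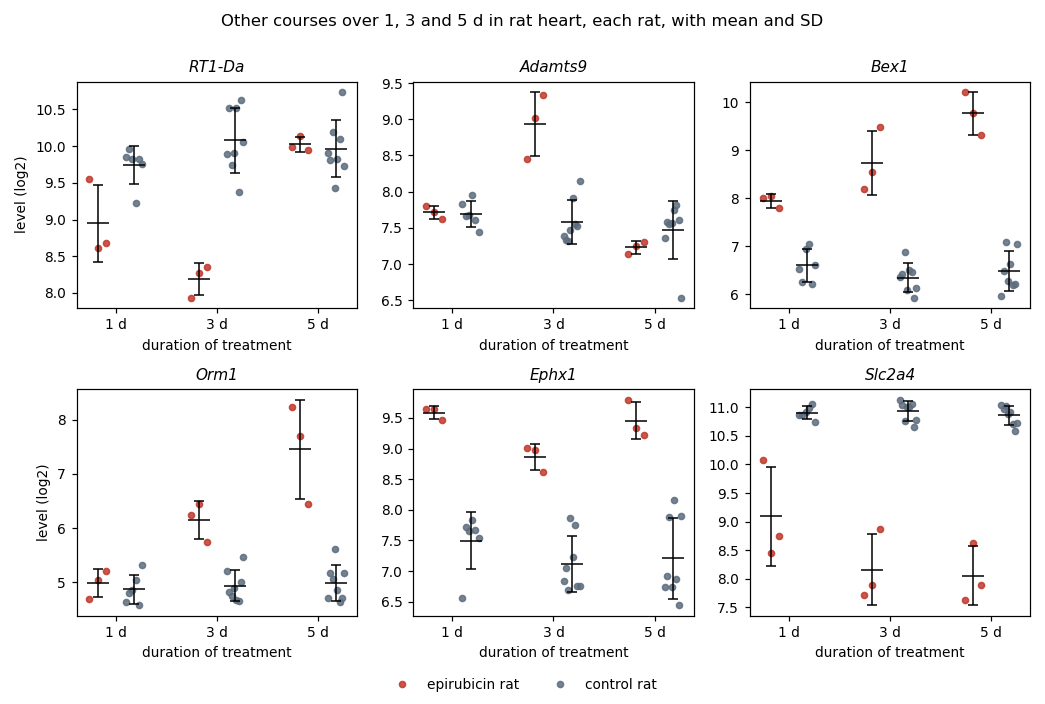
Level (log2, y axis) of 6 genes with other courses in each epirubicin rat and each control at 1, 3 and 5 d (x axis), with bars for the mean and SD. RT1-Da is below and Adamts9 above all controls at 3 d only, while Bex1, Ephx1 and Slc2a4 are apart from controls at every duration.

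Some targets of the DNA damage response and some detoxifying enzymes were called from 1 d on, and those named here were not called by the interaction. Of 31 targets of p53, 5, 10 and 10 were called higher at 1, 3 and 5 d, where 0.197%, 1.08% and 3.4% of all genes were. Without any 1 of 7 rats the count at 1 d was 3, and without any 1 of the 3 epirubicin rats at 3 d the count at 3 d was 4 to 6. Their median change was 0.28, 0.35 and 0.40. Ephx1, epoxide hydrolase, read 9.65, 9.64 and 9.46 in epirubicin rats at 1 d, against 6.56, 7.66 and 7.83 in controls (lowest, median and highest), and changed by 2.09, 1.75 and 2.25. Mgmt, which removes alkyl groups from DNA, changed by 0.95, 1.71 and 1.90. Cdkn1a, the cell cycle inhibitor p21, changed by 1.25 at 1 d (adjusted p 0.034, not called), 1.36 at 3 d and 1.88 at 5 d. Gsta1, a glutathione transferase, was called at each duration (2.33, 1.56 and 2.20), as were Pir (1.18, 1.12 and 1.62) and the protocadherin Pcdh20 (1.24, 1.71 and 1.42). Alox15, a lipoxygenase, was lower throughout (-2.62, -3.02 and -2.15), as was the phosphatase Cdc25b (-1.55, -2.54 and -1.41).

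The same series holds 3 other anthracyclines in 9 rats each at 1, 3 and 5 d, which allows the course of epirubicin to be compared with theirs. Epirubicin differs from doxorubicin in the orientation of a single hydroxyl group on the sugar. Doses were 2.7 mg/kg for epirubicin, 3 mg/kg for doxorubicin, 3.25 mg/kg for daunorubicin and 0.625 mg/kg for idarubicin, so the doses differed. Each compound came from a single study, and compound, dose and study cannot be told apart. At 1, 3 and 5 d, 12, 198 and 299 genes were called with doxorubicin, 1, 27 and 39 with daunorubicin, and 0, 4 and 9 with idarubicin, all against the same controls. The interaction of change and duration was called for 9, 4 and 3 genes with these drugs. In a direct test of the course over time, in which controls cancel, epirubicin differed from doxorubicin for 58 genes (0.408%), from daunorubicin for 84 (0.591%) and from idarubicin for 76 (0.535%). With p-values adjusted over these 3 comparisons together the counts were 64, 81 and 76. At 5 d alone, 1.09% of genes were called higher with epirubicin than with doxorubicin, 1.67% than with daunorubicin and 2.15% than with idarubicin.

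Interferon-inducible genes were among those whose course differed. At 5 d Psmb9 read 11.11 to 11.29 in epirubicin rats, 7.64 to 8.78 with doxorubicin, 7.57 to 8.45 with daunorubicin and 7.46 to 7.77 with idarubicin. The epirubicin rats stood apart from all 3. The 5 d difference was 3.10 against doxorubicin (95% interval 2.37 to 3.83), 3.10 against daunorubicin (2.38 to 3.83) and 3.58 against idarubicin (2.86 to 4.31). Ido1 differed by 2.81, 2.79 and 2.82, and Wars1 by 2.25, 2.09 and 2.11. Of the 106 interaction genes of epirubicin, 26 had a course that differed from each of the other 3 drugs, and 39 from none. Over all 14217 genes tested, 27 had a course that differed from each of the 3. The 106 were picked with the same epirubicin arrays, so this overlap was partly set in advance. These 26 include Psmb8, Psmb9, Psmb10, B2m, Igtp, Irgm, Gbp2, Gbp4, Gbp7, Cxcl9, Ido1, Wars1, Stat2, Isg15 and Serping1. They share the epirubicin arrays across the 3 comparisons.

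RT1-Da was called apart from each of the other drugs at 5 d and from none at 3 d. At 3 d it read 7.94 to 8.35 with epirubicin, 8.90 to 9.14 with doxorubicin, 7.89 to 8.65 with daunorubicin and 8.57 to 9.08 with idarubicin. At 5 d it read 9.95 to 10.14 with epirubicin and 7.86 to 8.60, 7.95 to 8.34 and 8.46 to 8.95 with doxorubicin, daunorubicin and idarubicin. The 3 d difference was -0.83 (95% interval -1.46 to -0.20), 0.03 (-0.60 to 0.66) and -0.57 (-1.20 to 0.06). The 5 d difference was 1.79 (1.16 to 2.42), 1.85 (1.22 to 2.48) and 1.36 (0.73 to 1.98), and the course was called against doxorubicin and idarubicin and not against daunorubicin (adjusted p 0.0109).

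Among red cell genes, Hbb and Alas2 at 5 d were called apart from none of the other drugs. Hbb at 5 d read 7.39 to 7.90 with epirubicin, 7.93 to 8.02 with doxorubicin, 6.80 to 8.18 with daunorubicin and 8.05 to 8.64 with idarubicin, so that epirubicin and daunorubicin overlapped. The 5 d difference was -0.38 against doxorubicin (95% interval -0.85 to 0.08), 0.13 against daunorubicin (-0.34 to 0.59) and -0.77 against idarubicin (-1.23 to -0.31, adjusted p 0.0253), none called. At 3 d Hbb was lower by 2.12 than with idarubicin (adjusted p 2.44e-08) and Alas2 by 2.10, both called. The course of Hbb was called against idarubicin (adjusted p 0.0016). Alas2 differed by -0.12 (-0.83 to 0.59), -0.29 (-1.0 to 0.42) and -0.23 (-0.94 to 0.48), and no course was called. By 5 d Alas2 lay low on the scale with epirubicin, which leaves little room for a lower value. Tfrc, which is also on the iron list, was called apart at 5 d from daunorubicin (-2.35, 95% interval -2.96 to -1.74, adjusted p 3.87e-07) and idarubicin (-2.69, -3.30 to -2.09). It was not called apart from doxorubicin (0.32, -0.29 to 0.92). Slc4a1 was called apart at 5 d from idarubicin (-1.90, -2.89 to -0.91).

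Some heart genes described above differed between drugs at 5 d. Ryr2 read 10.84 to 11.19 with epirubicin, 11.36 to 11.51 with doxorubicin, 12.19 to 12.22 with daunorubicin and 12.79 to 12.95 with idarubicin, with no overlap between neighbours. The epirubicin level was lower by 0.36 than with doxorubicin (95% interval of the difference -0.64 to -0.08, adjusted p 0.248, not called), and by 1.14 and 1.81 than with daunorubicin and idarubicin, both called. Bex1 differed from doxorubicin by -0.18 (-1.02 to 0.66), and was higher by 2.35 and 3.89 than with daunorubicin and idarubicin. Slc2a4 was lower than with each (differences of -1.15, -2.94 and -2.88, all called at 5 d), and its course over time was called against none of the 3. Myh7 differed from doxorubicin by -0.09 (-1.06 to 0.89) and from daunorubicin by 1.11 (0.13 to 2.08, not called).

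**Figure D5:**
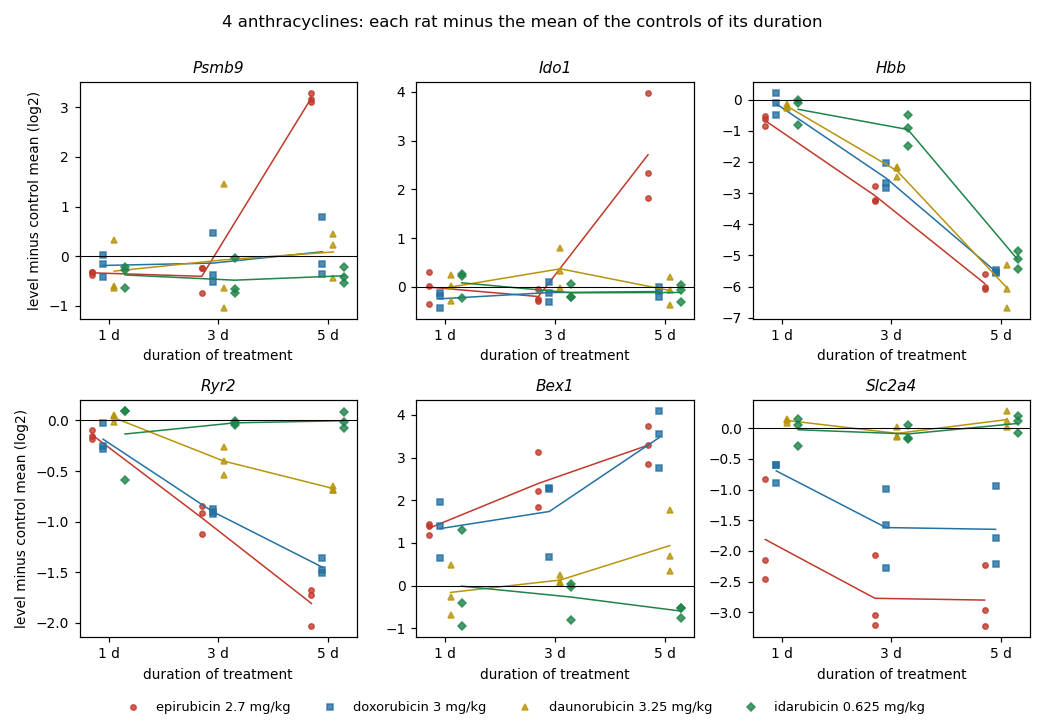
Level minus the mean of controls of the same duration (log2, y axis) of 6 genes at 1, 3 and 5 d (x axis). Each point is a rat given epirubicin, doxorubicin, daunorubicin or idarubicin, at different doses. Control rats are not drawn, and the horizontal line marks their mean. At 5 d Psmb9 and Ido1 are high with epirubicin and near the control mean with the other 3 drugs, Hbb is low with all 4 drugs, and Ryr2 differs from drug to drug.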

How the data were processed

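Poly(A) RNA from rat heart was hybridised to Affymetrix RG230_2.0 arrays. The authors deposited 1 table of log2 values per probe set and array, made by RMA (background correction, quantile normalization and probe summary) per the submitters' processing notes, and the sources used here give no version of RMA. Affymetrix arrays give intensities, so precision rests on the number of rats. Of 31099 probe sets, 57 control probe sets, 436 with several gene symbols and 9780 with none were left out. Of the 20826 with 1 symbol, 20758 were matched by gene ID, and the probe set of highest mean level over all arrays was kept for each of 14217 genes. Epirubicin arrays and controls were grouped by the labels for compound, dose, vehicle, route, duration and extraction campaign. A linear model over the 6 groups of treatment and duration was fitted with limma 3.58.1 in R 4.3.3 (lmFit, eBayes, 25 residual and 4.32 prior degrees of freedom). The interaction was a moderated F test over 5 d minus 1 d and 5 d minus 3 d. For the comparison of drugs, the same F test was made on differences between drugs. Genes were called at an adjusted p of 0.01 and 1.5-fold. The model was tested on simulated data. Gene lists (42, with 1090 of 1250 genes measured) were described by counts and medians. Genes were named by rule: up to 10 per direction of largest difference between 5 d and 1 d or 3 d among interaction genes, up to 5 per direction called at all durations without interaction, and list members. Members and lists were chosen with earlier results of these data known. Replicate numbers follow accession order and only name the animals. The labels name separate animals. Of the whole series, 17 arrays had no group from their labels, 0 of them intravenous saline. Alternatives covered thresholds, probe sets, normalization, blocks for study and hybridisation date, and leaving out each animal. Values were computed with Python 3.11.15, pandas 2.3.3 and numpy 2.4.6.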

Additional observations from a re-analysis of the deposited data

Results flagged for a closer look

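The change with epirubicin differed between durations for 106 genes by the F test of the difference itself. The course over the durations differed for 58 genes between epirubicin and doxorubicin, for 84 between epirubicin and daunorubicin and for 76 between epirubicin and idarubicin, with different doses and studies.

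The other results singled out here are control rats that lay far from the rest of their group. Chance alone sets apart about 1 in 20 groups, and 8 of 48 tests of list levels and 21 of 240 tests of genes did so. Among list means (log2), endothelial genes were lowest at 8.91 in 1 control at 1 d (nearest other control 9.07) and at 8.79 in 1 at 5 d. Smooth muscle genes were highest at 8.89 in 1 control at 1 d and at 9.28 in 1 at 5 d. Single controls were also highest for adipocyte genes at 5 d (8.92), mesothelial genes at 3 d (6.07), fast skeletal muscle genes at 5 d (6.31) and liver genes at 5 d (7.87).

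Among genes, single controls at 1 d were lowest for Ephx1 (6.56), RT1-Da (9.23), RT1-Db1 (7.19) and Ryr2 (12.16), and highest for Pir (7.16) and Serping1 (10.77). Single controls at 3 d were lowest for C1qb (7.61) and highest for Angptl4 (6.80), Ddx60 (6.20), Irgm (8.08), Kcna5 (8.07, nearest other 6.61), RT1-CE5 (6.69), Sf3a1 (6.15), Slc1a1 (6.30) and Tap1 (8.10). Single controls at 5 d were lowest for Adamts9 (6.54), Irgm (6.98), Jph2 (11.11), Tap1 (6.50) and Tfrc (10.29), and highest for Gsta1 (9.10).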

How the results depend on the processing

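None of the 80 single-gene results changed direction under any alternative run, and direction was checked for these only. Of these 80, 7 lost their call and 1 gained one with the mean of all probe sets of a gene. The methods' t-test lost 4 calls, and a new quantile normalization lost 2. Fitting the other drugs as well lost 3 and gained 1. RNA extraction date as a fixed term lost 2 and gained 1, and hybridisation date as a random block gained 2. Results that involve 5 d could not be run with controls of the epirubicin rats' own study, since it held 0 controls at 5 d. With an adjusted p of 0.05, 161 genes were called at 1 d, 190 by the interaction, 162 for 5 d minus 1 d and 135 for 5 d minus 3 d. With no fold minimum 1185 were called at 5 d. With controls of the epirubicin rats' own study only, 40 were called at 1 d, 22 at 3 d and 0 for 3 d minus 1 d, with 1 control at each duration. Without the 4 arrays of high liver or adipocyte level, an alternative chosen after seeing the data, the counts were 58 by the interaction, 46 for 5 d minus 1 d and 42 for 5 d minus 3 d, with fewer rats. With only the 2 drugs compared in the model, 50 courses differed from daunorubicin and 49 from idarubicin, and the cause was not tested.

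Leaving out 1 rat at a time gave 24 (without epirubicin 1 d rat 2) to 92 genes at 1 d, 143 (without epirubicin 3 d rat 3) to 301 at 3 d and 453 (without epirubicin 5 d rat 1) to 815 at 5 d. It gave 68 to 143 by the interaction, 56 (without epirubicin 5 d rat 2) to 147 (without rat 3) for 5 d minus 1 d, 48 (without epirubicin 3 d rat 1) to 111 for 5 d minus 3 d and 3 to 6 for 3 d minus 1 d. Courses differed for 29 (without doxorubicin 5 d rat 3) to 82 genes against doxorubicin, 52 (without daunorubicin 5 d rat 3) to 111 against daunorubicin and 49 (without idarubicin 5 d rat 3) to 108 against idarubicin. For the 80 single-gene results, each recomputed without 1 rat at a time, 2407 recomputed values stayed on their side of the threshold, 69 lost the call and 4 gained one. Ifit3 (5 d minus 1 d) lost it without any 1 of 14 rats, and Tap2, B2m, C1r, C1s, Aarsd1 and Arrdc2 without any 1 of several. Without the 4 arrays 17 of 80 lost their call, among them Tap2, B2m, Irf1, Ifit3, C1s, C1r and RT1-Da. Random blocks for hybridisation date (correlation 0.225) and study (0.0363) gave 128 and 109 interaction genes, and the methods' t-test gave 86. No paired analysis was possible because the labels give no replicate numbers that tie epirubicin rats to controls. The 3 rats a group and the 0 controls of the same study at 5 d limit what the 5 d values can show.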

Other observations

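Some gene groups not described above also changed with epirubicin. Of 29 glucocorticoid targets, 1, 8 and 11 were called higher at 1, 3 and 5 d, where 0.197%, 1.08% and 3.4% of all genes were, with median changes of 0.46, 0.84 and 0.83 against -0.01, -0.01 and -0.02 over all genes. Without any 1 epirubicin rat at 3 d the count at 3 d was 0 to 2, without epirubicin 5 d rat 1 the count at 5 d was 5, and without the 4 arrays of high liver or adipocyte level it was 7, with 0 at 1 d. With hybridisation date as a random block the count at 1 d was 6. Klf15, a regulator of amino acid and lipid use in muscle, was called at each duration (0.91, 0.84 and 0.63), and Cebpb, a transcription factor, at 3 d (1.88) and 5 d (2.02). Of 34 targets of the antioxidant regulator NRF2, 5 were called higher at 5 d (3.4% of all genes), or 3 without epirubicin 5 d rat 1. Nqo1, a quinone reductase, was called at each duration (0.95, 0.88 and 1.18), and Srxn1, which repairs peroxiredoxins, at 5 d (1.54).

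In the iron list, Slc11a2, an iron importer, was called lower at 1 d (-0.72) and 5 d (-0.72), as was Alas1, which starts haem synthesis outside red cells (-0.90 and -1.24). Cp, the plasma ferroxidase, was called higher at 5 d (1.28). Of 24 endothelial genes, 3 were called higher and 4 lower at 5 d, where 3.4% and 1.46% of all genes were. The lower count was 2 without epirubicin 5 d rat 1 and 2 without the 4 arrays. The tight junction gene Cldn5 changed by -0.44, 0.32 and 1.62 at 1, 3 and 5 d, the last called, while Apln, the ligand of Aplnr, fell by 1.35 at 5 d and the receptor Tie1 by 0.80. Among matrix genes, the protease Mmp2 was called higher at each duration (1.01, 1.08 and 1.00), and Col1a1, a fibrillar collagen, fell by 0.96 at 5 d, a call lost without any 1 of the 3 epirubicin rats at 5 d.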
